A study of Homo sapiens with 12 samples.

Results

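The genes described here are the RNA-binding motif (RBM) genes, that is, the rows of the expression tables whose symbol is RBM followed by a number and at most 1 letter, with RBM47 left out. The rule used symbols and no measured value. It found 36 of the 48114 listed genes, each of them once, in both tables, and RBM12 shares its row with CPNE1. RNA was sequenced from PANC-1 cells, used in the study as a basal-like model of pancreatic ductal adenocarcinoma (PDAC), and from HPAF-II cells, used as a classical model. In PANC-1 cells, either QKI (siQKI) or RBFOX2 (siRBFOX2) was knocked down with siRNAs at 40 nM, beside cells given a control siRNA (siCtrl). The HPAF-II cells are labelled as controls of the same kind. All cells were harvested at 48 h, and each of the 4 groups had 3 replicates. Each subtype is represented by 1 established cell line, and no HPAF-II library with a knockdown was analysed here.

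RBM proteins carry RNA recognition motifs, folds that bind single-stranded RNA, but they do not form 1 pathway. Some are stable parts or partners of the spliceosome, the machine that removes introns. Others sit in the exon junction complex, which marks spliced mRNA, in the complex that writes N6-methyladenosine (m6A) on RNA, or in adaptors that hand nuclear RNA to the exosome for decay. A further set is restricted to muscle, brain or germ cells in the body. QKI and RBFOX2, the targets of the knockdowns, are RNA-binding splicing regulators themselves. RBFOX proteins recognise TGCATG, written here in the DNA alphabet.

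Because RBFOX2 reads a short motif, the transcripts of the RBM genes were searched for it in their last 1000 bases. The search used 1 protein-coding transcript per gene (GENCODE release 29, GRCh38) and the sense strand only. TGCATG was present in 5 of 36 RBM genes (13.9%), against 24.7% of 17751 protein-coding genes. The sites of RBM17 and RBM39 were picked by outcome, because these genes fell with siRBFOX2. Of the 10 RBM genes lower with siRBFOX2, only RBM17 and RBM39 had a match in the last 1000 bases. RBM17 was lower with siQKI too. Whether the motif had a part in these falls was not tested. Capitals mark the motif, and a match is a description of the letters, not a measured binding site.
RBM17, 3′ UTR, chr10:6116618-6116647, plus strand: tttcccaaatacTGCATGtgactttcctaa
RBM17, 3′ UTR, chr10:6117083-6117112, plus strand: acccacctttcaTGCATGcatttattgttg
RBM39, coding sequence, chr20:35704671-35704700, minus strand: ctgtcaatgcatTGCATGgcaggtggtttg
The other RBM genes with a match in the last 1000 bases were RBM3, RBM4 and RBM11, none of which passed the test with siRBFOX2. Farther upstream, TGCATG was found in transcripts that rose with siRBFOX2, such as RBM15B, RBM43 and RBM7. It was also found there in some that fell, such as RBM18, RBM14 and RBM26, and in some that did not pass, such as RBM28 and RBM33. RBM46 was listed at 0 in all PANC-1 libraries.

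Values are normalized counts, that is, gene counts divided by a size factor for each library, and their sums ranged from 321833858 to 348181159 over the PANC-1 libraries and from 279777377 to 287232882 over those of HPAF-II. Of every 1000000 normalized counts, 2531 to 2722 came from RBM genes in PANC-1 libraries, and 2682 to 3211 did so in HPAF-II libraries. The targets fell in their own knockdowns: QKI had 25909, 24539 and 26150 normalized counts with siCtrl and 4630, 5453 and 5020 with siQKI (log2 fold change -2.34, SE 0.06, adjusted p = 9.15e-13), and RBFOX2 had 15355, 15508 and 15424 with siCtrl and 2403, 2171 and 1712 with siRBFOX2 (-2.89, SE 0.09, adjusted p = 4.70e-11). These are limma tests with p-values adjusted over all tested genes, as are all others below. RBFOX2 was also lower with siQKI, at 12629, 12778 and 12520 (-0.29, SE 0.09, adjusted p = 0.0207), a call that was lost without siCtrl replicate 2 or 3 or siQKI replicate 1 or 3 (adjusted p up to 0.0585) and after upper-quartile rescaling (-0.23, adjusted p = 0.0664). QKI had 26742, 28333 and 28973 with siRBFOX2, all above the controls, and did not pass (0.13, adjusted p = 0.105), but did after upper-quartile rescaling (0.17, adjusted p = 0.0455). The ductal genes KRT8, KRT18 and KRT19 were abundant in both lines, KRT7, EPCAM and CDH1 had higher means in HPAF-II, and VIM, ZEB1 and CDH2, genes of the mesenchymal state, had higher means in PANC-1. Endocrine genes (INS, GCG, SST) were at 0 in every group, the leukocyte genes PTPRC and CD3E had group means of at most 8.32 (CD68 26598 to 54414), endothelial genes of at most 24.0, acinar genes of at most 161 and the fibroblast genes DCN and LUM of at most 297 (COL1A1 4093 to 8122).

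Compared per kilobase of exon after rescaling each library to a total of 1000000, the most abundant RBM transcripts in control PANC-1 cells were those of RBM3, a cold-inducible protein (113), RBM39, a relative of the splicing factor U2AF2 (88.4), RBM8A, the Y14 subunit of the exon junction complex (77.0), RBM42 (74.3) and RBM14, a paraspeckle protein (57.0). The libraries of RBM8A, from 73.0 to 80.8, spanned those of RBM42, from 73.6 to 75.3, so the order of these neighbours was not resolved. At the other end were RBM43 (0.754), RBM44 (0.736), RBM11 (0.0282) and RBM20 (0.0274), and RBM46 was at 0. The ranges of RBM11 and RBM20 overlapped too. These last genes are best known from other tissues, RBM20 as the regulator of titin splicing in heart muscle, RBM11 from brain and testis, and RBM44 and RBM46 from germ cells. The union of annotated exons was used as the length, which lowers the level of genes with long alternative exons, and RBM12 was left out because its row is shared.

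To ask how depletion of QKI or RBFOX2 affected these genes, each knockdown was compared with siCtrl. Of the 36 RBM genes, 35 averaged 10 or more normalized counts over the PANC-1 libraries and were tested. With siQKI, 15 of 35 (42.9%) passed an adjusted p of 0.05, where 33.0% of 22544 tested genes did. Of the tested RBM genes, 32 had a mean of at least 1000, and among all tested genes of that level, called abundant genes here, the share was 54%. Of the 15, 3 were higher (background 14.9%, and 20.5% of the abundant genes) and 12 were lower (background 18.1%, and 33.5% of the abundant genes). With siRBFOX2, 17 of 35 (48.6%) passed, where 26.5% of tested genes did and 45% of those with a mean of at least 1000, with 7 higher (background 12.0%, and 17.2% of the abundant genes) and 10 lower (background 14.5%, and 27.7% of the abundant genes). The changes were small: the median absolute log2 difference over the tested RBM genes was 0.12 with siQKI and 0.14 with siRBFOX2, over all tested genes 0.29 and 0.25, and over the abundant genes 0.19 and 0.16. The median log2 difference itself was -0.06 and -0.03 over RBM genes, 0.03 and 0.01 over all genes, and -0.05 and -0.04 over the abundant genes. After upper-quartile rescaling, 5 RBM genes were higher and 8 lower with siQKI, and 7 were higher and 8 lower with siRBFOX2. The libraries of knockdown and control did not overlap for 19 of 35 RBM genes with siQKI (background 44.7%) and for 21 of 35 with siRBFOX2 (background 37.9%). These 2 backgrounds cover all tested genes and were not matched for abundance, so the counts are not read as a trait of RBM genes. In bulk RNA, fewer cells of a type and less RNA per cell cannot be told apart.

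**Figure D1:**
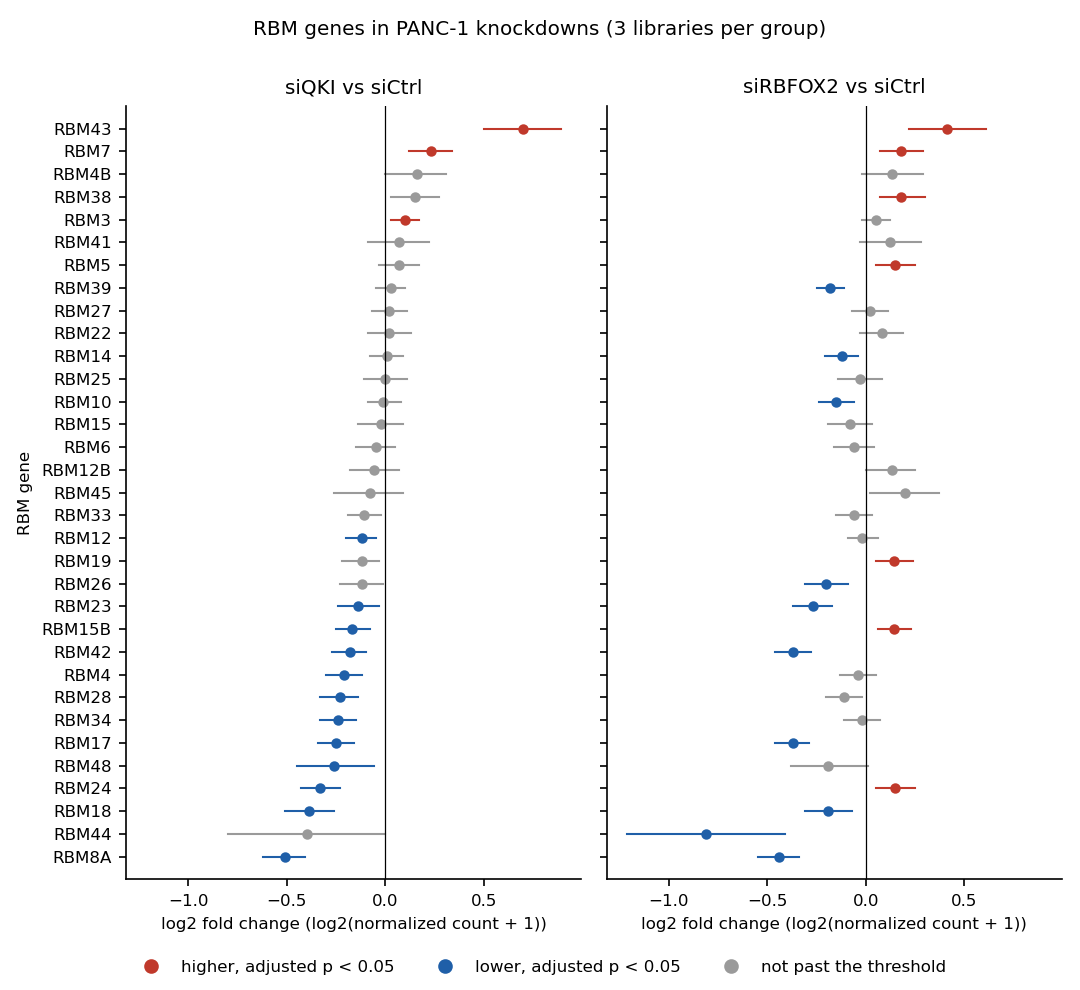
Log2 fold change on the log2(normalized count + 1) scale (horizontal axis) of 33 RBM genes (vertical axis) for siQKI (left) and siRBFOX2 (right) against siCtrl in PANC-1 cells, with 95% confidence intervals from limma as bars, and genes sorted by the siQKI value. RBM8A has the lowest point with siQKI (-0.51) and RBM43 the highest in both panels (0.70 and 0.41). RBM24 and RBM15B are past the threshold in both panels and on opposite sides. RBM11 and RBM20, whose intervals are wide, were left out.

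Of the tested RBM genes, 7 were past the threshold in the same direction in both knockdowns, 2 were past it in opposite directions, 6 were past it with siQKI alone, 8 with siRBFOX2 alone and 12 in neither. The knockdowns share their siCtrl libraries, so calls in the same direction are not independent of each other. The shares of all tested genes in these classes are not given here, so the counts do not show whether shared calls were frequent. Where the text below says that 2 knockdowns differ, siQKI was compared with siRBFOX2 directly.

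RBM8A, at chr1:145921556-145927484 (hg38), showed the largest fall with siQKI. It binds MAGOH in the core of the exon junction complex, which splicing deposits upstream of exon-exon junctions. RBM8A had 135741, 126114 and 132403 normalized counts with siCtrl, 89901, 89891 and 96405 with siQKI, and 93172, 92884 and 104344 with siRBFOX2. Every knockdown library was below every control library, and the knockdowns overlapped. The log2 fold change was -0.51 (SE 0.05, adjusted p = 1.18e-06) with siQKI and -0.44 (SE 0.05, adjusted p = 9.62e-06) with siRBFOX2, and siQKI minus siRBFOX2 was -0.07 (95% interval -0.18 to 0.03). Among 10 other genes of the exon junction complex and its periphery, 1 rose and 4 fell with siQKI. With siRBFOX2, 1 rose and 3 fell. Of the abundant genes, 20.5% were higher and 33.5% lower with siQKI, and 17.2% and 27.7% with siRBFOX2. These shares are the background for the other gene lists below as well. MAGOH fell with siQKI (-0.34, SE 0.08, adjusted p = 0.00554). The helicase EIF4A3 fell with siQKI (-0.17, SE 0.04, adjusted p = 0.0083) and with siRBFOX2 (-0.15, SE 0.04, adjusted p = 0.0214). RNPS1, a peripheral splicing activator, fell in both knockdowns (-0.19 with siQKI and -0.26 with siRBFOX2), and its partner PNN rose in both (0.12 and 0.17).

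RBM17 (SPF45), at chr10:6089034-6117447, binds U2-associated proteins at the 3′ splice site, and its transcript holds the pair of TGCATG sites shown above. Its libraries had 16405, 15637 and 16433 normalized counts with siCtrl, 13325, 13884 and 13488 with siQKI, and 12400, 12481 and 12490 with siRBFOX2. The 3 groups did not overlap, with siRBFOX2 lowest. RBM17 fell by 0.25 on the log2 scale with siQKI (SE 0.04, adjusted p = 0.000253) and by 0.37 with siRBFOX2 (SE 0.04, adjusted p = 1.13e-05), while the direct difference between the knockdowns missed the threshold (0.12, adjusted p = 0.0502).

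RBM42, a protein found with the U4/U6.U5 tri-snRNP, showed the same order. It had 43346, 43689 and 43222 normalized counts with siCtrl, 40005, 37007 and 37747 with siQKI, and 33707, 32541 and 34608 with siRBFOX2. No library of one group overlapped another group. The fall was 0.18 on the log2 scale with siQKI (SE 0.04, adjusted p = 0.00228) and 0.37 with siRBFOX2 (SE 0.04, adjusted p = 8.39e-06), and RBM42 was lower with siRBFOX2 than with siQKI (0.19, SE 0.04, adjusted p = 0.00348).

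RBM39 and its paralog RBM23 resemble the U2AF2 subunit that reads the polypyrimidine tract. RBM23 had 9653, 9440 and 9314 normalized counts with siCtrl, 8565, 8552 and 8732 with siQKI, and 7713, 8221 and 7625 with siRBFOX2, so that both knockdowns lay below all controls. With siRBFOX2 it fell by 0.27 on the log2 scale (SE 0.05, adjusted p = 0.000667). The siQKI call was marginal (-0.14, adjusted p = 0.0413) and was lost when any siCtrl or siQKI library or siRBFOX2 replicate 1 was left out (adjusted p up to 0.118). RBM39 fell with siRBFOX2 (-0.18, SE 0.03, adjusted p = 0.001) and had 0.03 with siQKI (adjusted p = 0.634), a difference of 0.21 between the knockdowns (adjusted p = 0.000411). RBM23 and RBM39 overlap DAD1 and NFS1, genes with a mean count of at least 10% of theirs, and strand handling is not stated for these counts.

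**Figure D2:**
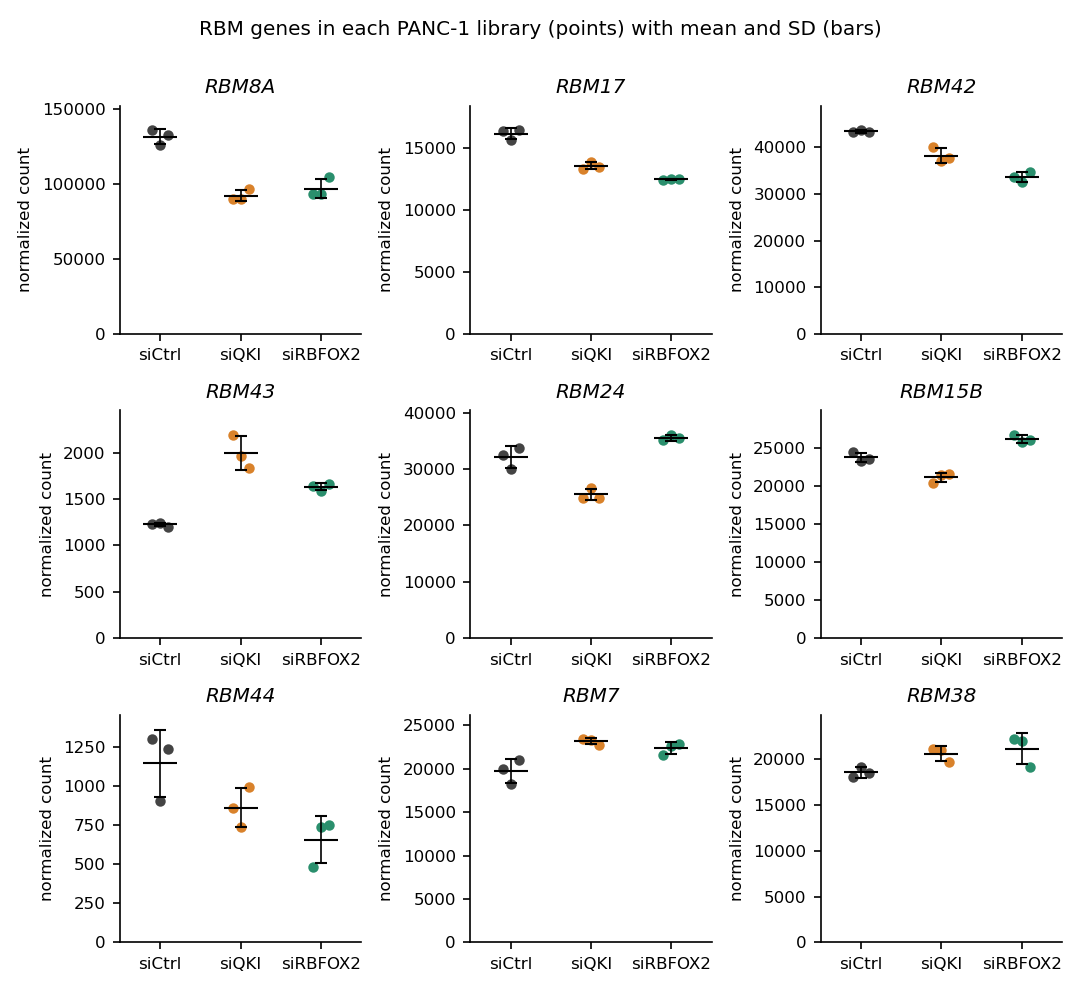
Normalized counts (vertical axes, starting at 0) of 9 RBM genes in each PANC-1 library (points), by siRNA (horizontal axes), with the mean and SD of 3 replicates as bars. RBM8A, RBM17 and RBM42 have all knockdown libraries below all controls, RBM43 has them all above, and RBM24 and RBM15B are lowest with siQKI and highest with siRBFOX2.

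RBM5, RBM6 and RBM10 are paralogs that regulate exon inclusion early in spliceosome assembly, and they did not move together. RBM5 had 15472, 13825 and 14427 normalized counts with siCtrl and 15691, 16567 and 16228 with siRBFOX2, a rise of 0.15 (SE 0.05, adjusted p = 0.0293) that was lost without siCtrl replicate 2 or 3 or without siRBFOX2 replicate 2 or 3 (adjusted p up to 0.138). RBM10 fell with siRBFOX2 (-0.15, adjusted p = 0.0148), a call that was lost without siCtrl replicate 1 or siRBFOX2 replicate 2 (adjusted p up to 0.0566). RBM6 had -0.06 with siRBFOX2 (adjusted p = 0.367), and none of the 3 passed with siQKI. RBM22, which contacts RNA in the catalytic centre of the spliceosome, and RBM25, which works with the U1 snRNP, had log2 differences between -0.03 and 0.08 in both knockdowns and passed in neither.

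Among 8 genes that act with these proteins at the U2 snRNP, 1 rose and 4 fell with siQKI, and 4 fell with siRBFOX2. U2AF1, which reads the AG of the 3′ splice site, had the largest change: 25438, 23174 and 22836 normalized counts with siCtrl against 16904, 16000 and 16893 with siQKI (-0.52, SE 0.06, adjusted p = 5.01e-06). CHERP and U2SURP, which bind RBM17, fell with siQKI by 0.39 (SE 0.04, adjusted p = 6.31e-06) and 0.33 (SE 0.04, adjusted p = 2.68e-05) on the log2 scale. SF3A1 fell by 0.29 in both knockdowns (adjusted p = 5.47e-05 and 6.90e-05).

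RBM48 and RBM41 belong to the minor spliceosome, which removes the rare U12-type introns. RBM48 had 2068, 1807 and 2011 normalized counts with siCtrl and 1714, 1732 and 1489 with siQKI. The groups did not overlap, but the fall (-0.26, SE 0.09, adjusted p = 0.0464) was lost when siCtrl replicate 1 or 3, any siQKI library or siRBFOX2 replicate 1 or 3 was left out (adjusted p up to 0.196). RBM41 passed in neither knockdown (0.07 and 0.12). Of 12 minor spliceosome genes, none rose, 4 fell with siQKI and 3 fell with siRBFOX2, among them CENATAC with siQKI (-0.34, SE 0.07, adjusted p = 0.0024) and SNRNP48, a protein of the U11/U12 particle, with siRBFOX2 (-0.29, SE 0.07, adjusted p = 0.00839).

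RBM15 and RBM15B are the paralogous adaptors that bring the m6A writer to RNA. RBM15B, at chr3:51391285-51397908, had 24440, 23350 and 23485 normalized counts with siCtrl, 20447, 21412 and 21547 with siQKI, and 26759, 25799 and 26076 with siRBFOX2. The groups did not overlap, with siQKI lowest and siRBFOX2 highest. RBM15B fell with siQKI (-0.17, SE 0.04, adjusted p = 0.00412) and rose with siRBFOX2 (0.14, SE 0.04, adjusted p = 0.0159). The direct difference was -0.31 (SE 0.04, adjusted p = 4.87e-05) and was kept in all 18 alternatives to the test, whereas the fall with siQKI missed the threshold after upper-quartile rescaling (-0.11, adjusted p = 0.0573) and the rise with siRBFOX2 without siCtrl replicate 2 or 3 or siRBFOX2 replicate 1 (adjusted p up to 0.0656). RBM15B overlaps DCAF1. RBM15 passed in neither knockdown (-0.02 and -0.08). Of the 6 other m6A writer genes, 1 rose and 2 fell with siQKI and 1 fell with siRBFOX2. METTL3, the catalytic subunit, rose with siQKI (0.21, SE 0.06, adjusted p = 0.0133) and WTAP fell in both knockdowns (-0.19 and -0.18).

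RBM7 is the RNA-binding subunit of the nuclear exosome targeting (NEXT) complex. It had 20021, 18258 and 21028 normalized counts with siCtrl, 23433, 23282 and 22787 with siQKI, and 21560, 22683 and 22905 with siRBFOX2, and all knockdown libraries were above all controls. The rise was 0.23 on the log2 scale with siQKI (SE 0.05, adjusted p = 0.00213) and 0.18 with siRBFOX2 (SE 0.05, adjusted p = 0.0143), the latter lost without siCtrl replicate 2 (0.12, adjusted p = 0.0784). RBM26 and RBM27, which connect polyadenylated nuclear RNA to the exosome, differed in their calls. RBM26 fell with siRBFOX2 (-0.20, SE 0.05, adjusted p = 0.0094, and 0.0531 without siCtrl replicate 3), and RBM27 had 0.02 in both knockdowns. Among 7 other genes of the NEXT and PAXT adaptors, 3 fell with siQKI, and 1 rose and 2 fell with siRBFOX2. The helicase MTREX fell in both knockdowns (-0.17 and -0.25) and ZFC3H1 rose with siRBFOX2 (0.27, SE 0.06, adjusted p = 0.00337).

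Over all 46 partner genes, 3 were higher and 19 lower with siQKI (47.8% in all, median log2 difference -0.07), and 2 were higher and 14 lower with siRBFOX2 (34.8%, median -0.06). The shares of all tested genes were 33.0% and 26.5%, and those of the abundant genes 54% and 45%, with medians of -0.05 and -0.04. By direction, 20.5% of the abundant genes were higher and 33.5% lower with siQKI, and 17.2% and 27.7% with siRBFOX2. Of the partner genes, 45 had a mean of at least 1000. After upper-quartile rescaling these counts were 5 and 14 with siQKI and 4 and 9 with siRBFOX2. The last of these lists holds the RBMX group of related RNA-binding genes, in which RBMX2 fell in both knockdowns (-0.24 and -0.16) and RBMXL1 with siQKI (-0.28, SE 0.06, adjusted p = 0.00156).

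RBM24 and RBM38 are close paralogs that bind mRNA and control splicing and stability, RBM24 in heart and skeletal muscle and RBM38 as a target of p53. RBM24, at chr6:17281361-17293934, had 32557, 29945 and 33703 normalized counts with siCtrl, 24930, 26678 and 24805 with siQKI, and 35071, 36094 and 35503 with siRBFOX2. It was lowest with siQKI and highest with siRBFOX2, with no overlap between any groups. The fall with siQKI was 0.33 on the log2 scale (-0.33, SE 0.05, adjusted p = 6.18e-05). The difference between the knockdowns, -0.48 (SE 0.05, adjusted p = 3.75e-06), was the largest among the RBM genes past the threshold. The rise with siRBFOX2 was smaller (0.15, SE 0.05, adjusted p = 0.0277) and was lost without siCtrl replicate 2 or any 1 of the siRBFOX2 libraries (adjusted p up to 0.145).

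RBM38 had 18012, 19133 and 18413 normalized counts with siCtrl, 21081, 20912 and 19609 with siQKI, and 22155, 21986 and 19123 with siRBFOX2. The third siRBFOX2 library lay within the controls, while all siQKI libraries lay above them. The rise passed with siRBFOX2 (0.18, SE 0.06, adjusted p = 0.023) and missed the threshold with siQKI (0.15, SE 0.06, adjusted p = 0.0537), and the knockdowns differed by -0.04 (95% interval -0.16 to 0.08, adjusted p = 0.728). The siRBFOX2 call was lost without siCtrl replicate 1 or 3 or siRBFOX2 replicate 1 or 2 (adjusted p up to 0.105).

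RBM43, at chr2:151247940-151261863, rose most in both knockdowns. Its libraries had 1228, 1242 and 1202 normalized counts with siCtrl, 2193, 1958 and 1828 with siQKI, and 1635, 1588 and 1665 with siRBFOX2. Again no groups overlapped. The log2 fold change was 0.70 (SE 0.09, adjusted p = 2.58e-05) with siQKI, a 1.62-fold rise, and 0.41 (SE 0.09, adjusted p = 0.00329) with siRBFOX2. RBM43 was higher with siQKI than with siRBFOX2 (0.29, SE 0.09, adjusted p = 0.0348), but this difference was lost without siQKI replicate 1 or 2 or any siRBFOX2 library (adjusted p up to 0.157).

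RBM44 had the largest fall with siRBFOX2. It had 1302, 902 and 1237 normalized counts with siCtrl, 859, 739 and 992 with siQKI, and 484, 739 and 752 with siRBFOX2. The siRBFOX2 libraries were all below the controls, whereas the siQKI libraries overlapped both other groups. The log2 fold change was -0.81 (SE 0.19, adjusted p = 0.00448) with siRBFOX2 and -0.40 (SE 0.19, adjusted p = 0.118) with siQKI, and the direct difference of 0.41 missed the threshold (adjusted p = 0.145). RBM44 overlaps MLPH, whose mean count over the PANC-1 libraries was at least 10% of that of RBM44.

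RBM18 fell in both knockdowns. It had 11844, 12705 and 13145 normalized counts with siCtrl, 9518, 10319 and 9008 with siQKI, and 11463, 10857 and 10689 with siRBFOX2. The 3 groups did not overlap, and siQKI was lowest. The fold change was -0.39 (SE 0.06, adjusted p = 9.95e-05) with siQKI and -0.19 (SE 0.06, adjusted p = 0.0239) with siRBFOX2, the latter lost without siCtrl replicate 2 or 3 or siRBFOX2 replicate 2 or 3 (adjusted p up to 0.104). The siQKI libraries were lower than the siRBFOX2 libraries by the direct test (-0.20, SE 0.06, adjusted p = 0.0244), which was lost without siQKI replicate 1 or 3 or siRBFOX2 replicate 1 (adjusted p up to 0.124). RBM18 overlaps MRRF.

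RBM19, RBM28 and RBM34 are nucleolar proteins of ribosome assembly. RBM28 fell with siQKI (-0.23, SE 0.04, adjusted p = 0.000629) and had -0.11 with siRBFOX2 (adjusted p = 0.0772). RBM34 fell with siQKI (-0.24, SE 0.04, adjusted p = 0.000439), had -0.02 with siRBFOX2 (adjusted p = 0.776), and differed between the knockdowns (-0.22, adjusted p = 0.00163). RBM19 had 14753, 14608 and 15021 normalized counts with siCtrl, 13350, 14173 and 13198 with siQKI, and 15637, 16442 and 16984 with siRBFOX2, again without overlap between groups. It was lower with siQKI than with siRBFOX2 (-0.27, SE 0.05, adjusted p = 0.000588). Against siCtrl, its rise with siRBFOX2 passed narrowly (0.14, adjusted p = 0.0314), was lost without any siCtrl library or siRBFOX2 replicate 2 or 3 (adjusted p up to 0.113), and its value with siQKI did not pass (-0.12, adjusted p = 0.0506).

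RBM3, the gene with the highest level per kilobase in PANC-1 controls, changed little. It had 119351, 124642 and 122446 normalized counts with siCtrl and 128151, 133825 and 131189 with siQKI, all of the latter higher. The rise of 0.10 (SE 0.03, adjusted p = 0.0321) was lost without siCtrl replicate 1 or 3 or siQKI replicate 2 or 3 (adjusted p up to 0.134), and the value with siRBFOX2 was 0.05 (adjusted p = 0.331). RBM4, which controls splicing and translation, fell with siQKI (-0.21, SE 0.04, adjusted p = 0.0012) and was lower than with siRBFOX2 (-0.17, adjusted p = 0.00763). Its paralog RBM4B, which overlaps it, had 0.16 with siQKI and 0.13 with siRBFOX2 and passed with neither (adjusted p = 0.112 and 0.204).

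Of the remaining RBM genes past a threshold, the joint CPNE1 and RBM12 row was lower with siQKI (-0.12, adjusted p = 0.0141), which was lost without siCtrl replicate 3 or siQKI replicate 1 or 3 (adjusted p up to 0.0646) and cannot be assigned to RBM12. RBM14 was lower with siRBFOX2 (-0.12, adjusted p = 0.0382), lost without any siCtrl library, siQKI replicate 2 or siRBFOX2 replicate 1 or 2 (adjusted p up to 0.133). RBM45, which binds m6A-marked RNA and aggregates in neurodegeneration, passed in neither knockdown against siCtrl (-0.08 and 0.20). Set side by side, it had 2416, 2448 and 2742 normalized counts with siQKI and 3215, 2824 and 3207 with siRBFOX2, without overlap. That difference (-0.28, SE 0.08, adjusted p = 0.0227) was lost without siQKI replicate 1 or 2 or siRBFOX2 replicate 1 or 3 (adjusted p up to 0.086).

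In the direct comparison, 14 of the 35 tested RBM genes (40%) differed between siQKI and siRBFOX2, where 21.5% of all tested genes did and 37.1% of those with a mean of at least 1000. With siQKI, 5 were higher (background 9.93%, and 17.0% of the abundant genes), namely RBM10, RBM14, RBM39, RBM42 and RBM43, and 9 were lower (background 11.6%, and 20.1% of the abundant genes), namely RBM24, RBM15B, RBM45, RBM19, RBM34, RBM18, RBM12B, RBM4 and the joint CPNE1 and RBM12 row, whose difference cannot be assigned to RBM12. Several of these direct calls were lost when 1 library was left out. The call of RBM10 was lost without siQKI replicate 1 or 3 or siRBFOX2 replicate 2 or 3 (adjusted p up to 0.0736), and that of RBM14 without replicate 1 or 2 of either knockdown (adjusted p up to 0.16). RBM12B lost its call without siCtrl replicate 2, any siQKI library or siRBFOX2 replicate 1 or 3 (adjusted p up to 0.155), and the joint row kept it in 3 of 18 alternatives (adjusted p up to 0.173). The libraries did not overlap for 20 of 35 (background 35.2% of all tested genes, not matched for abundance). RBM10 overlaps NDUFB11 and RBM12B overlaps CIBAR1, each with a mean count of at least 10% of that of the RBM gene. Among the genes not past the threshold in any of the 3 comparisons were RBM6, RBM15, RBM22, RBM25, RBM27, RBM33 and RBM41, with log2 differences from siCtrl between -0.11 and 0.12. RBM11 had 0 to 45.0 normalized counts and RBM20 35.2 to 159 in PANC-1 libraries, too few for a fold change to be resolved (SE 1.36 and 0.59).

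To set the classical against the basal-like model, the values of each control library were scaled to sum to 1000000 and compared without a test, because each line's table has its own normalization. At least a 2-fold difference with no overlap of libraries was seen for 10 of 36 RBM genes (27.8%), where 42.7% of 24673 compared genes met that rule. Of these, 5 were higher in HPAF-II (background 21.1%) and 5 were lower (background 21.6%). The libraries did not overlap, at any size of difference, for 26 of 36 RBM genes, against 63.7% of all compared genes. The median log2 ratio was 0.33 for RBM genes and 0.08 for all genes. The compared genes averaged 10 or more in the controls of either line and were not matched to the RBM genes for abundance. The lower share of RBM genes at least 2-fold apart is therefore not shown to be a trait of theirs.

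**Figure D3:**
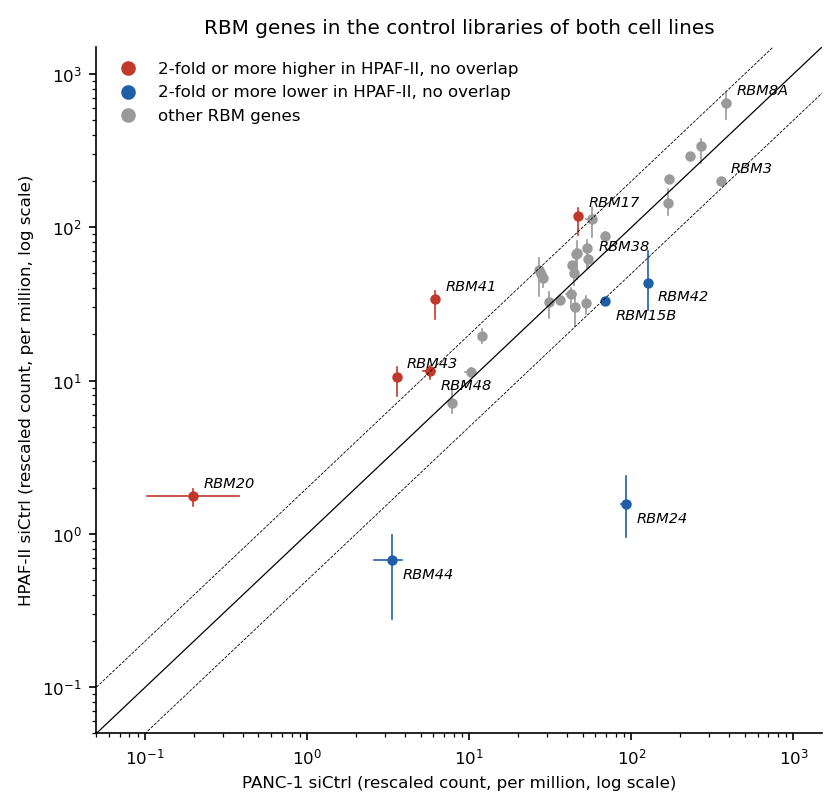
Mean rescaled count (per total of 1000000) of 34 RBM genes in control PANC-1 (horizontal axis) and control HPAF-II cells (vertical axis), both on log scales, with bars from the lowest to the highest of 3 libraries. The solid line marks equal values and the dashed lines a 2-fold difference. RBM24 lies farthest from the line (93.2 against 1.56), and RBM11 and RBM46, at 0 in one line, could not be drawn.

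RBM24 was the RBM gene most apart between the lines, with rescaled counts of 96.1, 86.0 and 97.6 in PANC-1 and 0.948, 2.38 and 1.34 in HPAF-II. It was thus 59.6-fold lower in HPAF-II. Its paralog RBM38 was alike in both lines, with 53.2 to 55.0 in PANC-1 libraries and 54.5 to 66.3 in those of HPAF-II. RBM44 was 4.89-fold lower in HPAF-II, with 3.84, 2.59 and 3.58 in PANC-1 and 0.979, 0.770 and 0.278 in HPAF-II. RBM15B was 2.08-fold lower, at 72.1, 67.1 and 68.0 against 33.3, 32.4 and 33.7, and its paralog RBM15 was in the opposite order, from 27.1 to 29.6 in PANC-1 libraries against 40.5 to 51.6 in those of HPAF-II. RBM42 had 128, 125 and 125 in PANC-1 and 32.3, 28.8 and 69.6 in HPAF-II, with 1 HPAF-II library well above the others. RBM11 had 0.00848, 0.129 and 0.0262 in PANC-1 and was listed at 0 in all HPAF-II libraries. It is counted among the genes lower in HPAF-II. Its values are so low, the lowest in PANC-1 being below the pseudocount of 0.01, that the size of its difference is not resolved.

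On the other side, RBM41 had 6.28, 6.15 and 6.06 in PANC-1 and 37.6, 38.7 and 25.3 in HPAF-II, a 5.49-fold higher level. RBM17 was 2.52-fold higher in HPAF-II, with 48.4, 44.9 and 47.6 against 133, 134 and 89.1. RBM43 was 2.98-fold higher, with 3.62, 3.57 and 3.48 against 11.7, 12.2 and 7.95. In all of these the third HPAF-II library was the lowest of its group and still above every PANC-1 library. RBM48 had 6.10, 5.19 and 5.82 in PANC-1 and 11.9, 12.5 and 10.2 in HPAF-II (2.02-fold). RBM20 had 0.113, 0.379 and 0.102 against 1.52, 1.97 and 1.79, which is 8.52-fold with the pseudocount of 0.01 and low in both lines. RBM7 (1.98-fold higher) and RBM26 (1.95-fold higher) were the genes just under the 2-fold limit, and RBM3 was 1.78-fold lower in HPAF-II (355 against 199).

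Set beside the knockdowns, of the genes at least 2-fold apart, RBM24, RBM42 and RBM15B were lower in HPAF-II than in PANC-1. They were also lower with siQKI than with siCtrl, and RBM43 was higher in both comparisons. RBM17 and RBM48 went the other way, higher in HPAF-II and lower with siQKI. RBM8A, the gene with the largest fall in siQKI, was 1.69-fold higher in HPAF-II. Also less than 2-fold apart and without overlap, RBM28 and RBM7 went the same way in both comparisons. RBM23, RBM3, RBM4 and the joint CPNE1 and RBM12 row went opposite ways. For RBM34 and RBM18, also lower with siQKI, the libraries of the lines overlapped. RBM42 and RBM43 moved in the same direction with siRBFOX2 as with siQKI (-0.37 and 0.41 with siRBFOX2), whereas RBM24 and RBM15B did not. All of these comparisons use the same siCtrl libraries of PANC-1. QKI itself had 25533 ± 869 normalized counts in PANC-1 controls (SD, n = 3) and 4102 ± 790 in HPAF-II (SD, n = 3), and the RBM gene left out by the rule, RBM47, had 227 ± 39.6 and 41306 ± 5068, each in the normalization of its own table.

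The third HPAF-II library differed more from the others in the levels of RBM genes than these did from each other. It was the lowest of the 3 for 21 of 35 RBM genes with a value in HPAF-II and the highest for 4. Over all genes it was the lowest for 38.6% and the highest for 38.1%. Among genes with a mean of at least 1000 it was the lowest for 48.9%. Its median log2 difference from the mean of the other libraries was -0.31 over RBM genes and -0.05 over all genes. Over genes with a mean of at least 1000 that median was -0.06. Its median absolute difference from them was 0.35 over RBM genes, against 0.10 between replicates 1 and 2. The same values were 0.48 against 0.24 over all genes, and 0.37 against 0.12 over genes with a mean of at least 1000. Pearson's r across all genes on the log2 scale did not single it out, at 0.951 and 0.953 with replicates 1 and 2, which correlated at 0.944 with each other. Without it the log2 ratio of HPAF-II to PANC-1 moved from -1.53 to -2.05 for RBM42, from -2.29 to -1.92 for RBM44 and from 2.46 to 2.63 for RBM41. The count of RBM genes at least 2-fold higher in HPAF-II went from 5 to 7, and the count lower stayed at 5. For the other 34 RBM genes the ratio moved by -0.19 to 0.22, and it changed sign for 0 of 36.

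**Figure D4:**
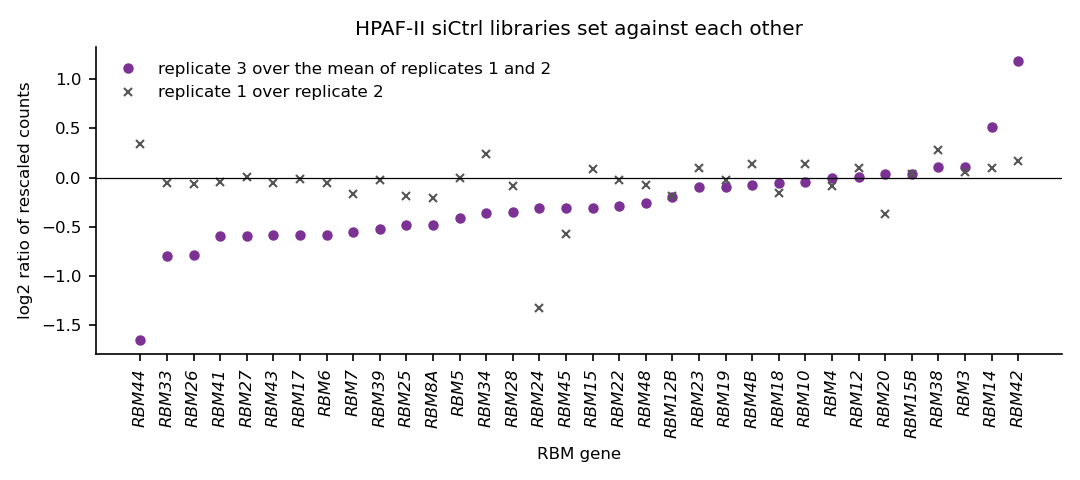
Log2 ratios of rescaled counts (vertical axis) between HPAF-II control libraries for each RBM gene with a mean above 0.1 (horizontal axis, sorted): replicate 3 over the mean of replicates 1 and 2 (circles) and replicate 1 over replicate 2 (crosses). Most circles lie below 0, with RBM44 lowest and RBM42 highest, while most crosses stay near 0 and the lowest cross is RBM24.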

How the data were processed

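RNA from 12 libraries was polyA-selected and sequenced. Per the submitters' processing notes, reads were aligned to hg38 with STAR 2.7.5a, with SAMtools, Picard and FastQC among the tools, and genes are those of FAST DB. The deposited values are a signal: the authors scaled the count of each gene by the library's DESeq2 size factor, separately in each cell line's table. All values of a library are whole multiples of 1 step, but 82.1% to 84.8% of the low ones divide by 3. A step is therefore no single fragment, the depth is unknown, and the replicates give the precision. Strand is not stated, so overlapping genes are uncertain.

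For the PANC-1 groups, limma 3.58.1 (R 4.3.3) was run with its trend option on log2(normalized count + 1), in 1 fit of 9 libraries, for genes averaging 10 or more, with Benjamini-Hochberg adjustment over all tested genes and a threshold of 0.05. The pseudocount understates changes of low genes. The procedure was tested on simulated data. Lines were described without a test after rescaling to a total of 1000000 with a pseudocount of 0.01. Python 3.11.15, pandas 2.3.3 and matplotlib 3.10.9 were used.

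Genes named with values in every library were, per knockdown, the 5 largest rises and falls among called genes averaging 50 or more, the 5 largest differences between the knockdowns, and the 5 genes most apart between lines in each direction; up to 4 genes per partner list were named. The RBM genes, partner lists and marker lists were chosen with earlier results of these data known. A motif search for the other knocked-down factor is not reported here.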

Additional observations from a re-analysis of the deposited data

How the results depend on the processing

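Each comparison of knockdowns was repeated under 18 alternatives, and no RBM gene past a threshold changed direction in any of them. Of the RBM genes past the threshold, 10 of 15 with siQKI, 7 of 17 with siRBFOX2 and 6 of 14 in the direct comparison stayed past it in every alternative. After upper-quartile rescaling, which moved the median of all genes from 0.025 to 0.087 (siQKI) and from 0.011 to 0.043 (siRBFOX2), RBM genes were 5 higher and 8 lower with siQKI (38.5% higher, against 20.0%), all genes past the threshold were 58% higher (against 45.2%), the direct comparison gave 7 higher and 7 lower, and partner genes were 5 higher with siQKI and 4 higher and 9 lower with siRBFOX2, against 3, 2 and 14. This rescaling ended the calls of the joint CPNE1 and RBM12 row, RBM15B, RBM23 and RBM48 with siQKI and of RBM10 and RBM14 with siRBFOX2. Without the mean-variance trend, RBM genes higher went from 7 to 1 with siRBFOX2, the direct comparison gave 3 higher and 5 lower, and partner genes were 1 higher with siQKI and 6 lower with siRBFOX2. At an adjusted p of 0.01, RBM genes higher were 1 with siRBFOX2, the direct comparison gave 2 higher and 5 lower, and partner genes were 0 higher with siQKI and 8 lower with siRBFOX2. The causes of these moves were not tested.

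With 1 library left out at a time, RBM genes higher were 2 to 4 with siQKI and 2 to 7 with siRBFOX2 (2 without siCtrl replicate 2, 3 without siCtrl replicate 3, 4 without any siRBFOX2 library), and lower 9 to 12 and 7 to 10. The direct comparison gave 2 to 5 higher (2 without siQKI replicate 1, 3 without siQKI replicate 2 or any siRBFOX2 library) and 5 to 8 lower (5 without siQKI replicate 1 or siRBFOX2 replicate 1). Partner genes were 1 to 3 higher (1 without siCtrl replicate 1 or siQKI replicate 2) and 16 to 19 lower with siQKI, and 2 to 3 higher and 9 to 14 lower with siRBFOX2 (9 without siRBFOX2 replicate 1). Between the lines, 4 to 7 RBM genes were higher in HPAF-II and 5 were lower. At 1.5-fold, 11 were higher.

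Same-numbered libraries did not deviate together over the tested genes (r from -0.0325 to 0.0235). This shows no shared deviation, but it cannot show that the samples were unpaired. With a replicate block, RBM genes were 4 higher and 10 lower with siQKI, 7 and 9 with siRBFOX2, and 5 and 7 in the direct comparison. The planned count-based tests were not run, because the steps of the values are not fragments. With 3 libraries per group and an unknown depth, a gene that missed the threshold is not shown to be unchanged.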
